A study of Homo sapiens with 24 samples.

Results

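The genes of the matrix metalloproteases and of plasminogen activation were examined in glioblastoma cell lines by CAGE-Seq, which counts the capped 5′ ends of transcripts. The rows of the CPM table were matched to gene symbols by Ensembl identifier, and the 10 rows taken were those of MMP1, MMP2, MMP3, MMP9, MMP14, MMP15, TIMP2, TIMP3, PLAU, and PLAUR, out of 43037 genes. The 4 established lines were U87MG, T98G, U251MG, and DBTRG-05MG. Each had been stably transduced with lentiviral particles and selected with puromycin, either with the construct carrying WWOX behind a CMV promoter with GFP (“WWOX” variant) or with the Puro-Blank control (“Vec” variant), with 3 libraries per variant and 24 in all. All variants, controls included, therefore carry a lentiviral insertion and went through puromycin selection, and U87MG and U251MG shared a culture medium, whereas T98G and DBTRG-05MG each had their own. In the methods the puromycin selection is called clonal. Whether each variant came from a single clone is not given there, and within a line a difference of clone cannot be told apart from WWOX. The methods call the libraries biological triplicates. Whether they came from separate transductions is not given in the sources used here, so that the p-values measure the spread between these libraries.

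Matrix metalloproteases are zinc-dependent enzymes, mostly secreted as inactive proenzymes, that cut collagens and other proteins of the extracellular matrix. Tissue inhibitors of metalloproteases (TIMPs) bind and block them. Urokinase (PLAU) bound to its receptor (PLAUR) turns plasminogen into plasmin, which degrades fibrin and activates several metalloproteases, and both systems are known for their part in the invasion of glioblastoma into brain tissue.

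Library totals ran from 10756072 to 16953689 tags. A count of 0 allows up to 3 tags, or between 0.177 and 0.2789 CPM depending on the library, and this limit covers counting error only. Libraries U251MG “WWOX” 1 and 2 stood apart from their group, with root mean square log2 differences from their group mates of 0.956 and 1.01 (between 0.328 and 0.768 in the other 22). Library 3 of that group was at 0.684, and it too was far from its nearest mate. The smallest chi-square per gene to a group mate was 229.5, 220.7, and 220.7 for libraries 1, 2, and 3, and at most 105.1 elsewhere. WWOX itself did not pass the test in any line, with log2FC between -0.0080 in U251MG and 0.66 in U87MG (SE 0.222, adjusted p between 0.137 and 1 by limma), and the library labelled U251MG “WWOX” 2 had 17.4 CPM against 31.4 to 36.8 CPM in U251MG “Vec”. In CPM the “WWOX” libraries lay above “Vec” in U87MG (61 to 66 against 33.9 to 40.1) and DBTRG-05MG (28 to 32 against 20.4 to 22.2). They overlapped in T98G (45.1 to 61.8 against 34.2 to 57.2). A tag that starts in vector sequence need not align to the gene, so this level does not check the transgene. For the protein, the paper reports that Western blot bore out the efficiency of transduction. Of 8 glioma or astroglial markers, 3 to 7 reached 5 CPM in a group, and their sum ran from 740.1 CPM in a U87MG library to 6117 CPM in U251MG. Outside U251MG the sum was mostly CD44, with “Vec” means of 807.5 CPM in U87MG, 1789 CPM in T98G, and 2880 CPM in DBTRG-05MG. SOX2 averaged 0.0707 CPM in U87MG “Vec” and 0.36 CPM in T98G “Vec”, against 98.1 CPM in U251MG “Vec” and 47.0 CPM in DBTRG-05MG “Vec”. The astroglial gene GFAP stayed at or under 11.6 CPM outside U251MG, where it ran from 114.2 CPM in “WWOX” 1 to 3226 CPM in “WWOX” 3, and OLIG2, of the oligodendrocyte lineage, stayed at or under 3.57 CPM in all libraries. The 5 macrophage or microglia markers summed to at most 1.19 CPM and the 4 endothelial markers to at most 0.458 CPM outside U251MG. The latter sum reached 13.3 CPM in U251MG, through CDH5. The 4 epithelial markers summed to between 504.8 and 1290 CPM in DBTRG-05MG (mostly through KRT18), 151.5 and 390.9 CPM in T98G, and 28.5 and 98.6 CPM in U251MG, and to at most 0.593 CPM in U87MG, while EPCAM and CDH1 were at most at 0.914 and 2.33 CPM in any library. The 4 neuronal markers summed to between 57.1 and 207.3 CPM. By group means this was mostly TUBB3, except in U251MG “WWOX”, where SYT1 averaged 44.3 CPM and TUBB3 43.3 CPM. RBFOX3 was at most at 0.203 CPM in any library. The part of these marker differences in the results was not tested.

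The levels of the 7 tested genes differed more between the lines than between the variants. MMP2 and MMP3 were highest in U87MG, TIMP3 in T98G, TIMP2 in U251MG, and PLAUR in U87MG. Within the lines, none of the 7 tested genes passed the threshold between “WWOX” and “Vec”. A level of 5 CPM in any 1 library was required for testing, which 12327 genes met, and MMP1, MMP9, and MMP15 did not reach it.

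**Figure D1:**
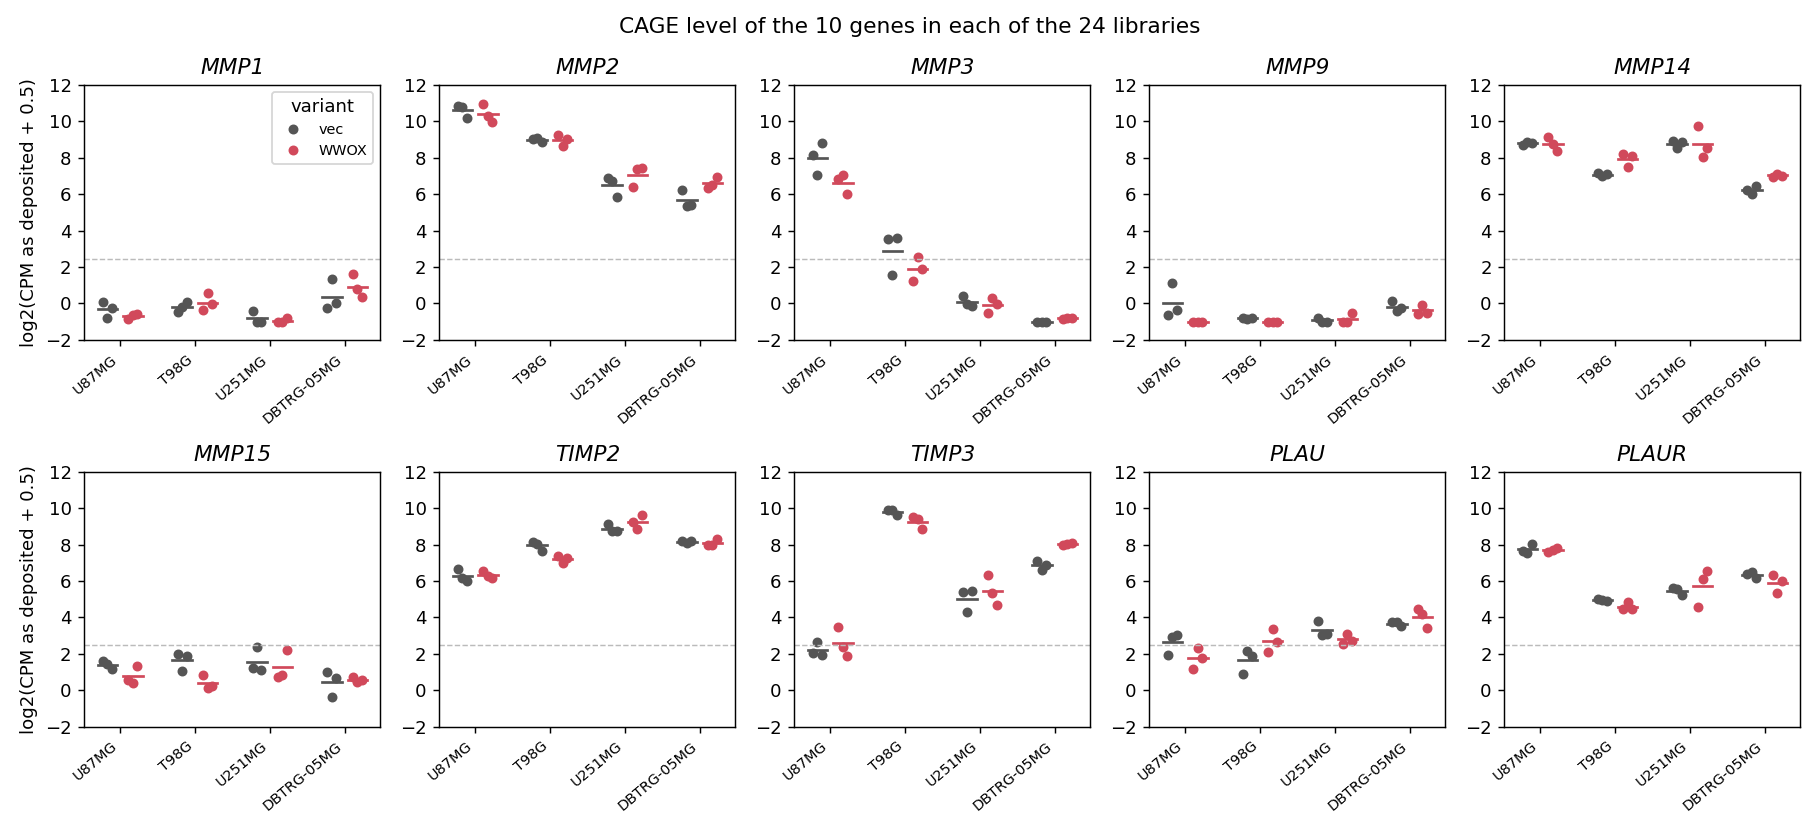
CAGE level of each of the 10 genes on a log2 axis, log2(CPM + 0.5), in every library, with “Vec” in grey and “WWOX” in red (3 points each), horizontal bars for the mean of the log2 values, and a dashed line at 5 CPM. MMP3 falls from 444 CPM in a U87MG library to 0 in DBTRG-05MG “Vec”, TIMP3 peaks in T98G, and MMP1, MMP9, and MMP15 stay under the dashed line in all 24 libraries.

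Since CAGE tags come from transcription starts, promoter sequences in RefSeq (GRCh38.p14, 250 bases before to 50 after the start) are shown for PLAUR, TIMP3, and MMP14. PLAUR had its highest level in U87MG, TIMP3 had its lowest there, and MMP14 encodes a membrane-bound protease. Entries were found for 5 of the 10 genes (MMP14, MMP15, TIMP3, PLAU with 2 entries, and PLAUR), and MMP1, MMP2, MMP3, MMP9, and TIMP2 had none in the table used. Capitals mark GGGCGG or its complement CCGCCC (GC box), TGANTCA (AP-1), and AGGAAG or CTTCCT (ETS). TIMP3 lies at chr22:32801455-32801754 on the plus strand, PLAUR at chr19:43670120-43670419 on the minus strand, and MMP14 at chr14:22836335-22836634 on the plus strand.
TIMP3: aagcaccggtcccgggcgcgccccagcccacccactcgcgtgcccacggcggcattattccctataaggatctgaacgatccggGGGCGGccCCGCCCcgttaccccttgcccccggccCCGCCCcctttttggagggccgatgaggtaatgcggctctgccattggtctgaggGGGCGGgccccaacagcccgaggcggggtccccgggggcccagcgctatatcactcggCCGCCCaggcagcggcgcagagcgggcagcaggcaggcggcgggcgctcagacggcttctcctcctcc
PLAUR: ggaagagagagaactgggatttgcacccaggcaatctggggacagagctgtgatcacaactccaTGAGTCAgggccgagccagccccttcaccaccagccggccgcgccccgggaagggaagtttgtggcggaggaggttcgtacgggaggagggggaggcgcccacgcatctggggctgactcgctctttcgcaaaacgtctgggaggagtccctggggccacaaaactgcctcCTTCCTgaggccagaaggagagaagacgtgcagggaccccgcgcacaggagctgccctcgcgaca
MMP14: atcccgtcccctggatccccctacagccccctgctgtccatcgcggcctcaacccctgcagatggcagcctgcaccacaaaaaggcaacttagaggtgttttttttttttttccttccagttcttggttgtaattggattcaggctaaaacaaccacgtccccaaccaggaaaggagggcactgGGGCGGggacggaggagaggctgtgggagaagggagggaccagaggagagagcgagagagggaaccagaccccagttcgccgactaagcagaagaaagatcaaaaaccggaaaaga

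The TIMP3 window held 5 GC boxes, at 166, 158, 131, 76, and 18 bases before the start. The MMP15 window also held 5, that of MMP14 held 1, and the later of the PLAU entries (chr10:73910882-73911181) held 3 and an ETS match, while the earlier entry (chr10:73910360-73910659) matched no motif. The PLAUR window was the one with an AP-1 match (TGAGTCA, 186 bases before the start), along with an ETS match. Of all 35116 promoters in the table, 45% held a GC box, 7.71% an AP-1 match, 33.6% an ETS match, and 11.5% the TATA box, spelled TATAAA, which none of the 6 entries held. The matches overlapped no other match, both strands were searched, and GC content was 72.7% for TIMP3, 75.3% for MMP15, 64% for PLAUR, and 55% for MMP14 against a median of 58.7%. A match describes the letters in the window and not the binding of a factor.

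Levels were first compared between the control variants of the lines. The gelatinase MMP2 (16:55389700-55506691, hg38), which cuts type IV collagen and denatured collagens, measured 1866, 1739, and 1183 CPM in the U87MG “Vec” libraries and 527.8, 542.3, and 465.4 CPM in T98G “Vec”. It measured 119.9, 104.9, and 57.2 CPM in U251MG “Vec” and 75.8, 40.6, and 42.2 CPM in DBTRG-05MG “Vec”. These groups did not overlap except for U251MG and DBTRG-05MG. The log2 difference was 1.62 (SE 0.367, adjusted p = 0.00111) between U87MG and T98G, and 2.67 (adjusted p = 4.44e-06) between T98G and U251MG. Between U251MG and DBTRG-05MG it was 0.87 (adjusted p = 0.0772), which did not pass the threshold. This last value did pass without DBTRG-05MG “Vec” 1 (1.17, adjusted p = 0.0326), without U251MG “Vec” 3 (1.17, adjusted p = 0.032), or without U251MG “WWOX” 1 (0.87, adjusted p = 0.0426).

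The stromelysin MMP3 (11:102835801-102843609), which degrades proteoglycans and activates other proenzymes of the family, had the widest range of the 10 genes. It stood at 286.2, 133.4, and 444 CPM in U87MG “Vec” and at 11.2, 2.44, and 11.7 CPM in T98G “Vec”. In U251MG “Vec” it had 0.811, 0.478, and 0.402 CPM (22 tags in all), and in DBTRG-05MG “Vec” 0 tags in each library. Against the limit of 3 tags per library, U87MG “Vec” was at least 1460-fold higher than DBTRG-05MG “Vec”, T98G “Vec” at least 42.7-fold higher, and U251MG “Vec” at least 2.85-fold higher. U87MG exceeded T98G by 5.11 (SE 0.487, adjusted p = 1.19e-08) and T98G exceeded U251MG by 2.97 (adjusted p = 4.47e-05) on the log2 scale. The pair of U251MG and DBTRG-05MG did not overlap, but its adjusted p was 0.11 by limma. That pair passed the threshold with a pseudocount of 0.1 (adjusted p = 0.000969), on the recovered tags with edgeR (0.00576), DESeq2 (0.000204), and limma-voom (0.00631), and without T98G “Vec” 2 (0.0356).

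Anchored in the membrane, MMP14 (14:22836560-22849041) activates the MMP2 proenzyme at the cell surface together with TIMP2. It had 423.3, 468.9, and 447.7 CPM in U87MG “Vec”, 477.5, 365.3, and 466.7 CPM in U251MG “Vec”, 140.7, 125.7, and 137.6 CPM in T98G “Vec”, and 75.5, 63.5, and 85.7 CPM in DBTRG-05MG “Vec”. U87MG and U251MG overlapped and differed by 0.21 (95% interval -0.369 to 0.792, adjusted p = 0.596). Both lay above T98G, by 1.73 (adjusted p = 2.73e-05) and 1.52 (adjusted p = 0.000169), and T98G lay above DBTRG-05MG by 1.06 (adjusted p = 0.00405).

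Another member of the membrane-anchored class, MMP15 (16:58025754-58046901), was detected in all 24 libraries but at 0.258 to 4.62 CPM. In T98G it had 3.52, 1.57, and 3.19 CPM in “Vec” against 1.30, 0.594, and 0.66 CPM in “WWOX”. Without the filter on low values its log2FC there was -1.28 (adjusted p = 0.215 by limma), and in “Vec” T98G exceeded DBTRG-05MG by 1.38 (adjusted p = 0.0227). MMP1 (11:102789401-102798160), the interstitial collagenase, had 180 tags over all libraries and was highest in DBTRG-05MG “WWOX” 1 (2.6 CPM). MMP9 (20:46008908-46016561), the other gelatinase, had 66 tags in all and 0 in 10 libraries. Of those tags, 28 were in U87MG “Vec” (2, 22, and 4 in the 3 libraries) and none in U87MG “WWOX”. Against the limit of 3 tags per library, “WWOX” was at least 2.78-fold below the mean of “Vec”. This bound does not hold for “Vec” 1 and 3, whose 0.142 and 0.281 CPM were under or near that limit (up to 0.254 CPM). Library 2 held 22 of the 28 tags, and without the filter the log2FC was -1.11 (adjusted p = 0.0529). Also without it, MMP9 in “Vec” was higher in U87MG than in T98G (0.90, adjusted p = 0.0295) and U251MG (1.04, adjusted p = 0.0132), and MMP1 was lower in U251MG than in DBTRG-05MG (-1.12, adjusted p = 0.0322).

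Among the inhibitors, TIMP2 (17:78852977-78925387), which blocks MMP2 and also takes part in its activation, was highest in U251MG “Vec” at 558.3, 435.4, and 421.7 CPM. T98G “Vec” had 283.8, 262.8, and 202.5 CPM, DBTRG-05MG “Vec” 295.0, 268.5, and 287.3 CPM, and U87MG “Vec” 100.5, 71.2, and 62.5 CPM. The middle pair, T98G and DBTRG-05MG, overlapped and differed by 0.016 (95% interval -0.448 to 0.481, adjusted p = 0.965). U251MG exceeded them by 0.76 (adjusted p = 0.0119) and 0.77 (adjusted p = 0.0106), and U87MG lay below DBTRG-05MG (log2 difference -1.66, adjusted p = 2.19e-06). Without U251MG “Vec” 1 the first pair of differences gave adjusted p = 0.0742 and 0.0697, and without T98G “Vec” 3 the difference between T98G and U251MG gave 0.052.

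TIMP3 (22:32801705-32863041), an inhibitor that stays bound to the matrix, had the widest range of the 7 tested genes after MMP3. Its level was 966.8, 953.5, and 778.8 CPM in T98G “Vec”, 138.5, 95.9, and 115.1 CPM in DBTRG-05MG “Vec”, 40.9, 19.3, and 42.3 CPM in U251MG “Vec”, and 3.69, 5.72, and 3.3 CPM in U87MG “Vec”. No pair of lines overlapped. T98G exceeded DBTRG-05MG by 3.17 (SE 0.402, adjusted p = 1.09e-06) and U87MG by 7.60 on the log2 scale (U87MG minus T98G -7.60, adjusted p = 6.05e-13). U251MG exceeded U87MG by 2.67 (U87MG minus U251MG -2.67, adjusted p = 1.12e-05).

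PLAU (10:73909177-73917496) was low in all lines, between 1.34 and 21.1 CPM over the 24 libraries. In “Vec” it measured 12.9, 12.8, and 10.9 CPM in DBTRG-05MG, 13.2, 7.72, and 8.04 CPM in U251MG, 3.34, 7.19, and 7.72 CPM in U87MG, and 1.34, 4.01, and 3.11 CPM in T98G. T98G was the lowest, with log2 differences of -1.53 from U251MG (adjusted p = 0.00653) and -1.84 from DBTRG-05MG (adjusted p = 0.00114). The higher 3 lines were not told apart, with adjusted p of 0.622 for U251MG and DBTRG-05MG, 0.362 for U87MG and U251MG, and 0.118 for U87MG and DBTRG-05MG. The last of these pairs did not overlap, and it passed on CPM as deposited (-1.02, adjusted p = 0.0455). U87MG exceeded T98G by 1.02 (adjusted p = 0.0553), a value that passed with median of ratios scaling (0.0487), with DESeq2 (0.0353), and without any 1 of 6 libraries (lowest adjusted p = 0.0185, without U87MG “Vec” 1). The difference between T98G and U251MG did not pass without T98G “Vec” 1 (-1.15, adjusted p = 0.0599).

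Its receptor PLAUR (19:43646095-43670547) ran in another order, with 200.0, 184.1, and 259.9 CPM in U87MG “Vec” and 82.8, 88.5, and 70.8 CPM in DBTRG-05MG “Vec”. It had 47.6, 47.0, and 36.4 CPM in U251MG “Vec” and 31.8, 30.3, and 29.7 CPM in T98G “Vec”. U87MG exceeded DBTRG-05MG by 1.61 (SE 0.368, adjusted p = 0.00109). DBTRG-05MG exceeded T98G (T98G minus DBTRG-05MG -1.17, adjusted p = 0.0143, but 0.0528 without DBTRG-05MG “Vec” 2), while its difference from U251MG (-0.83, adjusted p = 0.0913) did not pass. Without U251MG “WWOX” 1 or 2, libraries that stand apart, this last difference gave adjusted p = 0.00733 and 0.0497. T98G minus U251MG was -0.33 (95% interval -1.1 to 0.43, adjusted p = 0.534). Neither T98G nor DBTRG-05MG overlapped U251MG for PLAUR, although these differences did not pass.

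Counted over the “Vec” comparisons, U87MG set against T98G gave 6 of the 7 tested members past the threshold, where 39.8% of all genes passed, U87MG against U251MG gave 5 (38.6%), and U87MG against DBTRG-05MG gave 6 (44.1%). T98G against U251MG gave 6 (32.4% of all genes), T98G against DBTRG-05MG 6 (41.2%), and U251MG against DBTRG-05MG 3 (31.6%). The filter keeps a gene that is high in a single line, so these counts, and the shares of variance that follow, describe the 7 genes and not the whole list of 10. As a description of the 24 libraries, 95.8% of the variance of TIMP3, 95.6% of MMP3, 93.8% of MMP2, 91.3% of TIMP2, 86.3% of PLAUR, and 85.4% of MMP14 lay between lines, against a median of 63% over all tested genes and 50.8% for PLAU. The range of the 8 group means on the log2 scale was 9.12 for MMP3, where the lowest group was at 0 tags and the value depends on the pseudocount, 7.60 for TIMP3, and 5.16 for MMP2, and between 2.12 and 3.16 for PLAU, TIMP2, MMP14, and PLAUR, against a median of 1.61. In cultures measured in bulk, fewer cells with a transcript and less of it per cell cannot be told apart, and neither can line and culture medium, except between U87MG and U251MG, which shared theirs.

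**Figure D2:**
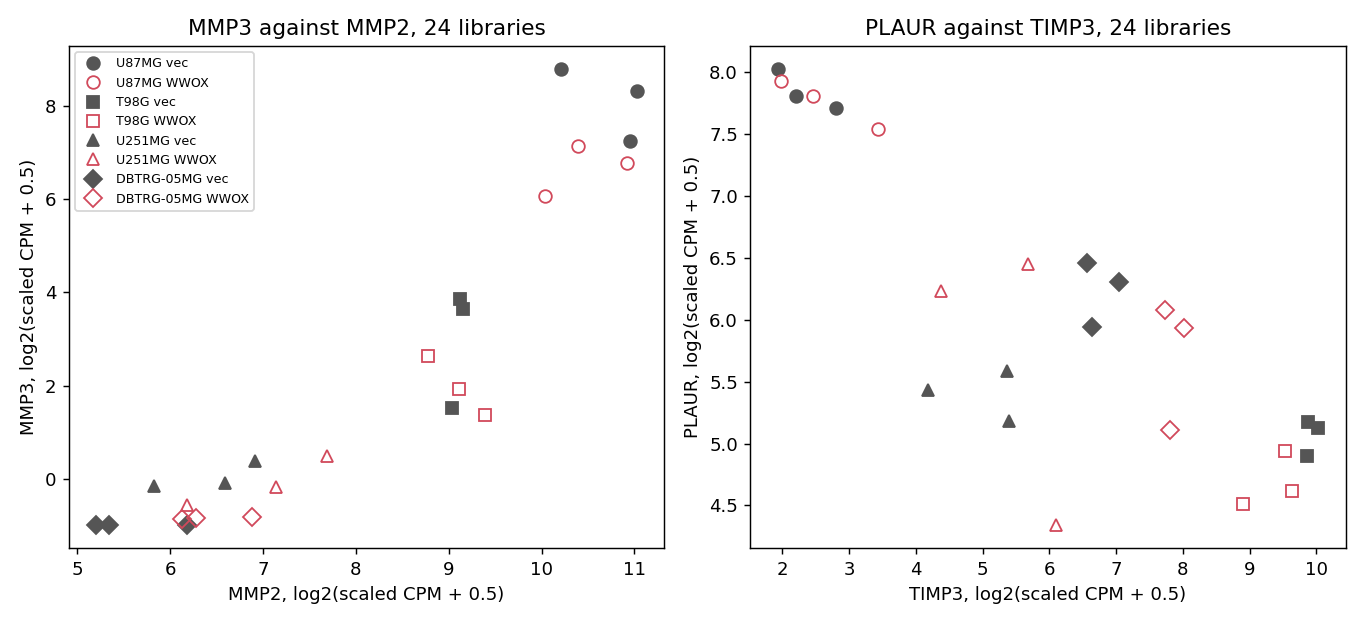
MMP3 against MMP2 (left) and PLAUR against TIMP3 (right), in log2(scaled CPM + 0.5), 1 point for each of the 24 libraries, with the marker shape giving the line, filled grey for “Vec” and open red for “WWOX”. MMP2 and MMP3 are both highest in U87MG and both low in U251MG and DBTRG-05MG (r = 0.92), and PLAUR is highest where TIMP3 is lowest (r = -0.83), with the libraries grouped by line.

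Over the 8 group means, MMP2 and MMP3 had a Pearson's r of 0.948, TIMP3 and PLAUR -0.87, and MMP3 and TIMP2 -0.837. MMP2 and its activator MMP14 had 0.557, and PLAU and its receptor PLAUR -0.194. These are descriptions of 8 points that fall into 4 lines sharing their background, and carry no test. By the same measure, the genes most like MMP3 among all those tested were GSTZ1 (0.994) and LINC02989 (0.991). They were PTPRN (0.99) and H2BC14 (0.987) for MMP2, WTIP (0.992) and GPX3 (0.992) for TIMP3, RPSAP52 (0.991) and ITGB1-DT (0.988) for PLAUR, and YIPF3 (0.99) and STAG3L4 (0.989) for TIMP2. MMP14 was most like SLC1A3 (0.962) and DAGLA (0.96), and PLAU most like DIAPH2 (0.966) and EEA1 (0.965). Over the 24 libraries the value for PLAU and DIAPH2 was 0.39 and for MMP14 and DAGLA 0.608, whereas the other 12 stayed between 0.74 and 0.98.

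Whether WWOX changed these genes was asked within each line. Of the 7 members, 0 passed for U87MG, where 3.2% of all genes did, 0 for T98G (1.14%), 0 for U251MG (0.316%), and 0 for DBTRG-05MG (1.02%). Tests of the recovered tags by edgeR, DESeq2, or limma-voom also called 0. At an unadjusted p under 0.05, there were 4 members for T98G (11.5% of all genes), 2 for U87MG (11.5%), 0 for U251MG (11.5%), and 3 for DBTRG-05MG (7.63%). The median log2FC of the 7 members was -0.38 for T98G, -0.11 for U87MG, 0.28 for U251MG, and 0.29 for DBTRG-05MG, and that of all genes was between -0.044 and 0.0037.

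**Figure D3:**
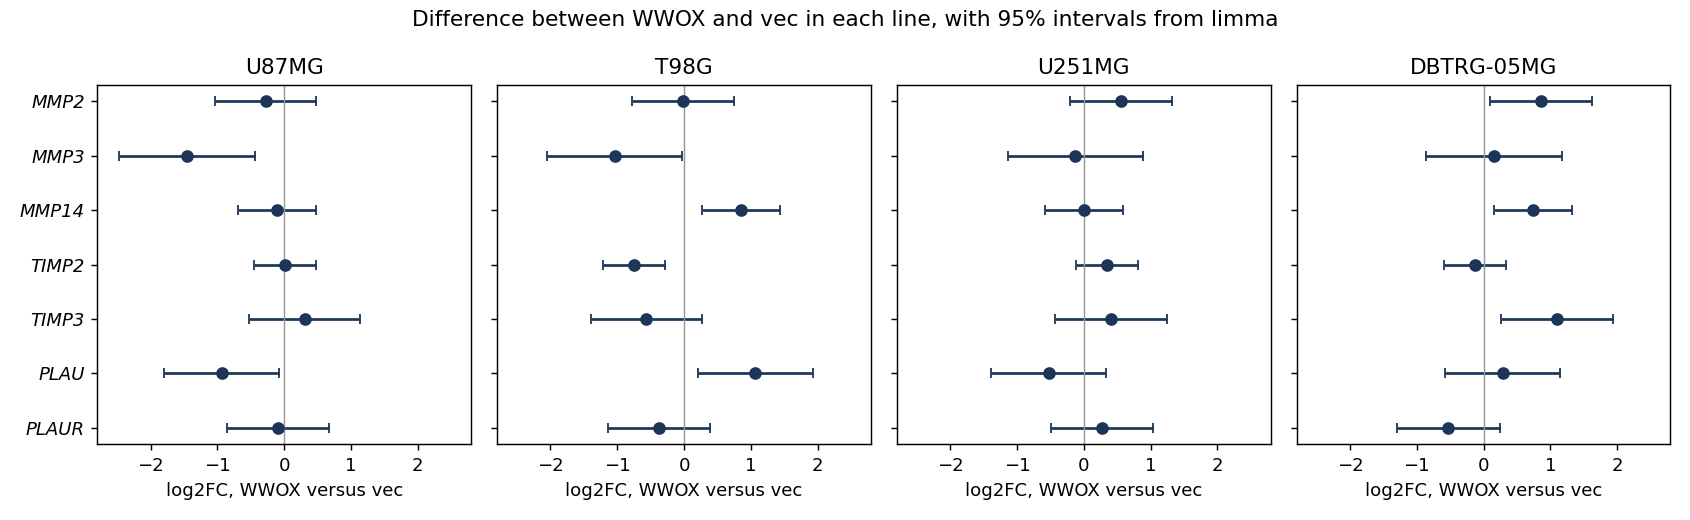
Log2FC of “WWOX” versus “Vec” for the 7 tested genes in each line, with points for the estimate and bars for the 95% interval from the limma model (3 libraries per group). The intervals of 9 of the 28 values exclude 0, and none of the 28 passed the threshold after adjustment over all 12327 genes.

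The largest log2FC in size was that of MMP3 in U87MG. Its CPM were 286.2, 133.4, and 444 in “Vec” and 111.8, 131.9, and 62.8 in “WWOX”. The groups did not overlap, although the nearest libraries were at 133.4 and 131.9 CPM, and the log2FC was -1.46 (SE 0.487, adjusted p = 0.134). In T98G the “Vec” libraries had 11.2, 2.44, and 11.7 CPM and the “WWOX” libraries 1.86, 5.27, and 3.17 CPM. Here the groups overlapped through T98G “Vec” 2, and the log2FC was -1.04 (adjusted p = 0.42). Without that library MMP3 passed the threshold in T98G (-1.78, adjusted p = 0.0217) and in the mean of the lines (-0.80, adjusted p = 0.026). It then also passed in U87MG (adjusted p = 0.0284), with the log2FC unchanged at -1.46. The library left out is not a U87MG library, and all groups share an estimate of the spread, so this pass is not separate support. T98G “Vec” 2 had a root mean square log2 difference of 0.768 from its group mates. U251MG and DBTRG-05MG were near or at the limit of detection, with 22 tags in “Vec” and 20 in “WWOX” for U251MG, and 0 tags in “Vec” and 1 in each “WWOX” library for DBTRG-05MG.

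MMP14 lay higher in “WWOX” in both lines where its “Vec” level was low. In T98G it had 140.7, 125.7, and 137.6 CPM in “Vec” and 292.7, 179, and 274.1 CPM in “WWOX”. In DBTRG-05MG it had 75.5, 63.5, and 85.7 CPM in “Vec” and 122.9, 139.1, and 128.4 CPM in “WWOX”. Neither pair of groups overlapped, and the log2FC were 0.85 (SE 0.28, adjusted p = 0.163) and 0.74 (adjusted p = 0.405). The values were -0.11 in U87MG and -0.00018 in U251MG, where a single “WWOX” library reached 856.3 CPM and the other two 260.1 and 375.5 CPM. MMP2 in DBTRG-05MG measured 75.8, 40.6, and 42.2 CPM in “Vec” and 81.9, 89.2, and 121.7 CPM in “WWOX”. Its log2FC was 0.85 (SE 0.367, adjusted p = 0.54), with overlapping groups on the scaled values, and it lay between -0.28 and 0.56 in the other lines.

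TIMP3 passed the threshold in neither T98G nor DBTRG-05MG, where its values had opposite signs. In DBTRG-05MG it had 138.5, 95.9, and 115.1 CPM in “Vec” against 250.7, 259.5, and 267 CPM in “WWOX”, and the log2FC was 1.10 (SE 0.402, adjusted p = 0.361). In T98G it had 966.8, 953.5, and 778.8 CPM in “Vec” and 715.8, 680, and 455.6 CPM in “WWOX”, and the log2FC was -0.56 (adjusted p = 0.647). The groups did not overlap in either line. Set against the average effect elsewhere, DBTRG-05MG differed by 1.05 (adjusted p = 0.596) and T98G by -1.17 (adjusted p = 0.265).

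For TIMP2, T98G was the line with separate groups, at 283.8, 262.8, and 202.5 CPM in “Vec” and 166.7, 125.1, and 152.2 CPM in “WWOX”. Its log2FC was -0.75 (SE 0.224, adjusted p = 0.128). The median log2FC of the 736 tested genes of chromosome 17, where TIMP2 lies, was -0.31 relative to all genes in this line, and its part in the result was not tested. In the other lines the log2FC of TIMP2 ran from -0.13 to 0.35, with overlapping groups.

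PLAU had 1.34, 4.01, and 3.11 CPM in T98G “Vec” and 3.72, 9.72, and 5.74 CPM in T98G “WWOX”. The log2FC was 1.07 (SE 0.415, adjusted p = 0.291), and the groups did not overlap on the scaled values that were tested. In U87MG it had 3.34, 7.19, and 7.72 CPM in “Vec” and 1.77, 4.41, and 2.96 CPM in “WWOX”, with a log2FC of -0.94 (adjusted p = 0.352) and overlapping groups. PLAUR overlapped in every line, with log2FC between -0.53 in DBTRG-05MG and 0.28 in U251MG. The U251MG “WWOX” libraries of PLAUR were at 23.3, 69.6, and 91.3 CPM, on both sides of the “Vec” range of 36.4 to 47.6 CPM.

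For the mean of the 4 lines, 0 of the 7 members passed, where 1.78% of all genes did, and the unadjusted p was under 0.05 for MMP3 (-0.62, SE 0.243, adjusted p = 0.224) and MMP14 (0.37, SE 0.14, adjusted p = 0.202). On the recovered tags the value for MMP3 was -0.048 with edgeR, -0.18 with DESeq2, and -0.34 with limma-voom (adjusted p between 0.76 and 0.899). The test of a difference between the lines, taking each against the mean of the others, gave 0 members for U87MG (2.39% of all genes), 0 for T98G (1.54%), 0 for U251MG (0.422%), and 0 for DBTRG-05MG (0.982%). At an unadjusted p under 0.05 there were 1, 3, 1, and 1 members in the same order (9.92%, 12.8%, 11.4%, and 7.1% of all genes), and edgeR, DESeq2, and limma-voom called 0 for the mean and for each difference. The smallest adjusted p there were those of TIMP2 (-0.82, adjusted p = 0.134) and PLAU (1.46, adjusted p = 0.158) in T98G. Without U251MG “WWOX” 1, PLAUR passed for U251MG (1.27, adjusted p = 0.0402, against 0.61 and 0.624 with it). Within U251MG, no member passed with or without either of its “WWOX” libraries that stand apart.

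The rest of the pathway was taken from a list of 37 related genes, of which 22 were tested. In each of the 4 lines, 0 of the 22 passed between “WWOX” and “Vec” with limma, against the shares of all genes given above. For single genes the unadjusted p was under 0.05 for 1 of them in U87MG (11.5% of all genes), for 2 in T98G (11.5%), for 3 in U251MG (11.5%), and for 2 in DBTRG-05MG (7.63%). The other tools each called 1 of the 22 in T98G, named here after their values were seen. edgeR and limma-voom called MMP16, a membrane-type metalloprotease (log2FC -3.68, adjusted p = 0.0388, and -2.95, adjusted p = 0.0289), and so did limma with a pseudocount of 0.1 (-2.04, adjusted p = 0.00493, against -0.80 and adjusted p = 0.184 with 0.5). It averaged 0.425 CPM in “Vec” and 0.031 CPM in “WWOX”, or 5, 11, and 3 tags against 1, 0, and 0. DESeq2 called SERPINE2, a secreted serpin (1.51, adjusted p = 0.00848, against 1.46 and adjusted p = 0.06 with limma), which averaged 108.3 CPM in “Vec” and 303.2 CPM in “WWOX”. In U251MG, DESeq2 called ANXA2, an annexin that binds plasminogen at the cell surface (-0.98, adjusted p = 0.0416, against -1.07 and adjusted p = 0.128 with limma). With 1 library left out, limma called SERPINE2 in T98G without T98G “WWOX” 1, U251MG “Vec” 1, U251MG “Vec” 2, or U251MG “WWOX” 2 (1.46 to 1.76, adjusted p from 0.0284 to 0.0447), and MMP28 without T98G “Vec” 2 (-1.41, adjusted p = 0.0432). In U251MG it called MMP10 without “WWOX” 1 (1.54, adjusted p = 0.0295) and ANXA2 without “WWOX” 2 (-1.33, adjusted p = 0.0183).

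TIMP1, an inhibitor of many metalloproteases, had 372.2, 114.9, and 170.2 CPM in U251MG “Vec” and 514, 621.8, and 429 CPM in U251MG “WWOX”. Its log2FC was 1.40 (SE 0.408, adjusted p = 0.162), and it passed without U251MG “Vec” 1 (1.89, adjusted p = 0.031). In U87MG it was 0.91 (adjusted p = 0.364), with 383 to 1148 CPM in “Vec” and 998.5 to 1454 CPM in “WWOX”. PLAT, the tissue plasminogen activator, showed log2FC between -0.44 and 0.36. In “Vec” its mean was 218.1 ± 71.7 CPM (SD, n = 3) in DBTRG-05MG, 74.3 ± 18.2 CPM in U251MG, 21.6 ± 8.64 CPM in T98G, and 5.77 ± 1.34 CPM in U87MG. All neighbours in this order differed (adjusted p between 2.33e-05 and 0.000293), and the order placed U87MG lowest, where PLAUR was highest.

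**Figure D4:**
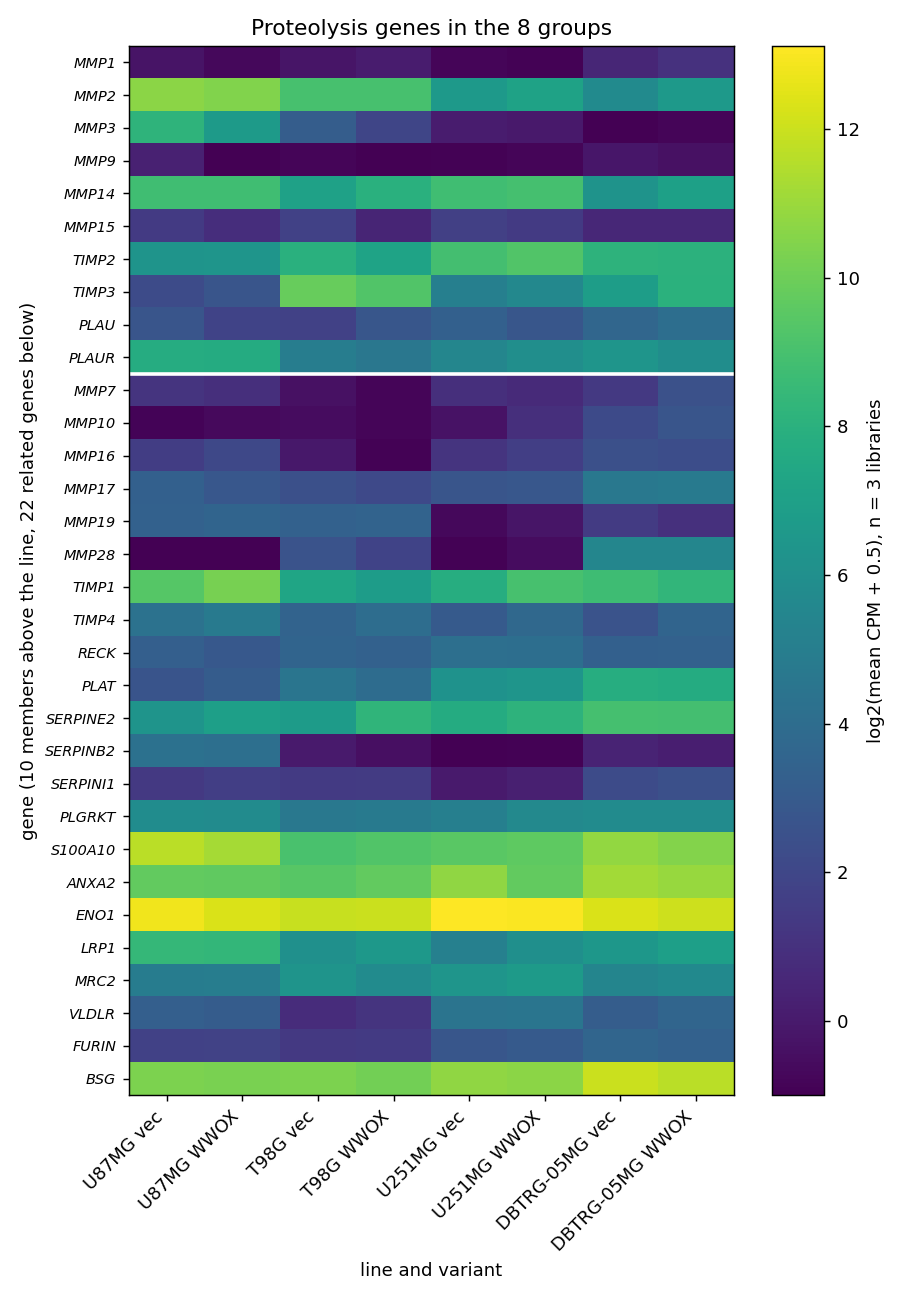
Mean CAGE level, as log2(mean CPM + 0.5) on a colour scale, of the 10 genes (above the white line) and of the 22 tested related genes (below it) in the 8 groups, n = 3 libraries each. The columns of a line resemble each other, with MMP2 and MMP3 bright in U87MG, TIMP3 in T98G, and PLAT in DBTRG-05MG.

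Over the related list, 11 of 22 passed when U87MG “Vec” was set against T98G “Vec” (39.8% of all genes), 13 against U251MG (38.6%), and 13 against DBTRG-05MG (44.1%). T98G against U251MG gave 10 (32.4%), T98G against DBTRG-05MG 17 (41.2%), and U251MG against DBTRG-05MG 15 (31.6%). Of the 17, 14 were higher in DBTRG-05MG, as were 2646 of the 5075 called over all genes. The median log2FC of the 22 between “WWOX” and “Vec” ran from -0.092 in DBTRG-05MG to 0.11 in U251MG.

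Several of these genes share their position with others, and whether the counting used strand is not given in the sources used here. Without strand, tags of both partners cannot be told apart. TIMP3 overlaps SYN3 on the opposite strand, and MMP1 and MMP3 both overlap WTAPP1 on the opposite strand. PLAU overlaps C10orf55 and MMP9 overlaps SLC12A5-AS1, in each case opposite. MMP2 overlaps MMP2-AS1 and ENSG00000274508 on the opposite strand and ENSG00000279030 on its own strand. TIMP2 shares its strand with CEP295NL and PLAUR with RN7SL368P, whereas MMP14 and MMP15 overlapped no annotated gene. TIMP2 also overlaps 3 genes on the opposite strand. Partners on the same strand would not be separated by strand either.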

How the data were processed

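The authors aligned 75 nt single-end CAGE reads to hg38 with STAR, counted tags with Rsamtools, and deposited counts scaled to CPM per gene. The processing notes of the submitters also name limma 3.42. Each deposited CPM value was a whole number of tags (within 0.01 of a tag) in 100% of values, and the tags were thus recovered. Of 43037 genes, 43033 were matched to a symbol through GENCODE 44 (hg38).

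Scaling factors were unweighted trimmed means of M-values, and log2(CPM + 0.5) of genes reaching 5 CPM in any 1 library was fitted with limma (trend, 8 groups, 16 residual degrees of freedom). The log2FC understates changes of low genes. Two-sided p were adjusted over the 12327 genes (Benjamini-Hochberg, threshold 0.05). The median SE of a log2FC was 0.321. Levels are printed as deposited, and overlap of groups refers to the scaled log2 values. How many of all genes had groups without overlap was not counted, so a lack of overlap is a description and not a test.

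The members and lists were chosen with earlier results of these data known. The genes named were the 10 members, related genes past the threshold in a line, PLAT, and TIMP1, and for each tested member the 2 genes with the highest r. Another gene of the related list is not reported here. Alternatives were a pseudocount of 0.1 or 1, no filter, CPM as deposited, median of ratios scaling, replicate number as a block, tests of the recovered tags (edgeR quasi-likelihood, DESeq2, and limma-voom), a model of each line alone, and leaving out each of the 24 libraries. Replicates differed by more than sampling noise. The number of sample columns not used was 0. The script was tested on simulated data. Versions were edgeR 4.0.16, limma 3.58.1, and DESeq2 1.42.0 under R 4.3.3, and pandas 2.3.3 and matplotlib 3.10.9 under Python 3.11.15.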

Additional observations from a re-analysis of the deposited data

Results flagged for a closer look

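TIMP3 was lower in every “WWOX” library of T98G (log2FC -0.56) and higher in every “WWOX” library of DBTRG-05MG (1.10), without overlap of “Vec” and “WWOX”, but passed in neither line (adjusted p = 0.647 and 0.361 by limma). The share of all genes whose groups separate in this way was not counted, so the separation adds nothing to these tests. MMP3 was lower in every “WWOX” library of U87MG (-1.46, adjusted p = 0.134 by limma). Its fitted value in DBTRG-05MG was 0.16, from 0 tags in each “Vec” library and 1 in each “WWOX” library. Both are under the limit of 3 tags, and the value ran from 0.0804 to 2.91 over the alternatives, so that no direction can be read there. The difference between these pairs of lines was not tested.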

How the results depend on the processing

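Under every alternative that kept all libraries, 0 members were called in each “WWOX” comparison. With 1 library left out the counts ran from 0 to 1 for U87MG, T98G, and the mean (without T98G “Vec” 2), from 0 to 1 for the difference of U251MG (without U251MG “WWOX” 1), and from 2 to 5 (3 as reported) between U251MG and DBTRG-05MG “Vec” (5 without U251MG “WWOX” 1). Of 759 log2FC under alternatives that kept all libraries, 739 kept direction and side of the threshold, 0 lost and 8 gained a call, and 12 reversed. Of 1944 with 1 library left out, 1900 kept both, 5 lost and 17 gained a call, and 22 reversed. All groups share an estimate of the spread, so leaving out a library of another line can move p at an unchanged log2FC. Other causes were not tested.

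With all libraries kept, reversals began near 0. With 1 library left out they also began at 0.31 (TIMP3 in U87MG) and 0.28 (PLAUR in U251MG). TIMP2 in U87MG was -0.0146 with edgeR and -0.0203 with DESeq2 (-0.19 to 0.211 with 1 library left out). MMP2 in T98G was 0.0117 with median of ratios scaling, 0.0101 with edgeR, and 0.0314 with DESeq2 (-0.163 to 0.141). MMP14 in U251MG was 0.0131 on CPM as deposited, 9.57e-05 with median of ratios scaling, 0.121 with edgeR, 0.0122 with limma-voom, and 0.107 with DESeq2 (-0.397 to 0.219). TIMP2 between T98G and DBTRG-05MG “Vec” was -0.197 on CPM as deposited and -0.0238 with median of ratios scaling (-0.0848 to 0.0768). With 1 library left out, values ran from -0.271 to 0.0725 for MMP14, -0.109 to 0.632 for TIMP3, and -0.176 to 0.00405 for PLAUR in U87MG, and from -0.427 to 0.111 for MMP3 and -0.148 to 0.944 for PLAUR in U251MG.

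All genes called ran from 213 to 618 in U87MG (395 as reported), 0 to 273 in T98G (140), 3 to 162 in U251MG (39), 38 to 395 in DBTRG-05MG (126), and 101 to 385 for the mean (220), the lowest with a model of the line alone (edgeR for the mean) and the highest without the filter, or with DESeq2 in T98G and U251MG. For the differences they ran from 195 to 468 in U87MG (294), 102 to 342 in T98G (190), 12 to 172 in U251MG (52), and 29 to 332 in DBTRG-05MG (121). With 1 library left out they ran from 253 (without U87MG “Vec” 2) to 491 in U87MG, 45 (without T98G “WWOX” 3) to 394 (without T98G “Vec” 2) in T98G, 13 (without U251MG “Vec” 3) to 557 (without U251MG “WWOX” 2) in U251MG, 74 (without DBTRG-05MG “Vec” 1) to 149 in DBTRG-05MG, and 156 to 849 (without U251MG “WWOX” 2) for the mean, and for the differences from 198 to 346, 66 to 378, 11 to 182, and 82 to 143 in the order above. CPM as deposited moved the median of all genes by -0.145 to -0.203 in the “Vec” comparisons of U87MG and T98G with U251MG and DBTRG-05MG, and the share of higher genes among calls from 45.1% to 35% between U87MG and DBTRG-05MG.

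Replicate numbers did not pair the libraries (r between -0.546 and 0.51, over 0.1 in 4 of 12 pairs). Between libraries of unlike number, r ran from -0.634 (T98G “Vec” 2 with “WWOX” 1) to 0.701 (U251MG “Vec” 2 with “WWOX” 3). In DBTRG-05MG it was 0.637, 0.613, and 0.633 for “Vec” 1, 2, and 3 with “WWOX” 3, 1, and 2. A pairing under another numbering was not tested, and a block on replicate number does not account for it. With the replicate block 0 members were called in each “WWOX” comparison, and 7 in place of 6 between U87MG and T98G “Vec”, through PLAU (1.02, adjusted p = 0.0365). MMP1, MMP9, and MMP15 were tested without the filter on low values, and 0 of them passed between “WWOX” and “Vec” in any line with limma (unadjusted p under 0.05 for MMP9 in U87MG, 0.00131, and MMP15 in T98G, 0.00835).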
